A study of Homo sapiens with 4 samples.

Results

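The collagen chains were read as a gene family in RNA-seq of HCT116 and LOVO cells. Members were the protein-coding genes whose symbol is COL, a number, the letter A and a number, which took in 44 of the 58735 genes of the table. HCT116 and LOVO are established human colorectal cancer lines, labelled as colon cancer cells of genotype WT, and each was sequenced as adherent cells and as spheroids, with 1 library for each of the 4 conditions. Adherent cells, labelled as not treated, were kept in RPMI-1640 with fetal bovine serum. Spheroids were raised in ultralow attachment dishes in serum-free DMEM/F12 with B27, N2, bFGF and EGF and with oxaliplatin, a platinum drug, for which their label gives a treatment of 1 mg/ml without a drug name. Growth form, medium, serum and drug changed together and cannot be told apart. Levels are given as FPKM, which scales the reads on a gene by its length and by the size of the library. The whole reads behind each FPKM are given beside low values. The length is that of all annotated exons of a gene together, which can exceed the transcript that the cells make. Levels, shares and ratios set between different chains carry this uncertainty, which counting intervals do not cover, while ratios of 1 chain between libraries use the same length. A difference between conditions is given as the log2 ratio of FPKM with its 95% exact (Clopper-Pearson) counting interval, which covers counting error only. Each condition had 1 library, so differences within a line carry no p-value.

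Collagens are extracellular matrix proteins that assemble inside the cell as trimers of chains, and a chain whose partners are missing is usually retained or degraded. Fibrillar collagens form the tensile fibrils of connective tissue, collagen IV forms the sheet of the basement membrane on which the colon epithelium rests, collagen VII anchors that sheet to the stroma, and collagen VI forms beaded filaments close to the cell surface. In the intestine most fibrillar collagen is made by stromal fibroblasts, whereas epithelial and stromal cells both contribute to the basement membrane.

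The 4 libraries held 15483569 to 20429147 reads on genes. The cell identity markers were read before the chains, because the libraries labelled LOVO departed from an epithelial profile. Of 8 colon epithelium markers, 6 and 7 had an FPKM of at least 1 in adherent HCT116 cells and HCT116 spheroids, with summed FPKM of 1754 and 1288, against 3 and 4 markers with sums of 327 and 187 in the adherent and spheroid libraries labelled LOVO. In those LOVO libraries the FPKM of EPCAM was 0.930 and 1.50, and that of the epithelial cadherin CDH1 was 0.117 and 0.00805. The intestinal factor CDX2 had 0 reads there, against 323 and 216 in adherent and spheroid HCT116 cells. VIL1 also had 0 reads there but was low in HCT116 too, with 6 and 11 reads. By contrast, the keratins KRT8 and KRT18 stood at 188.8 and 121.9 in adherent LOVO cells. The 10 fibroblast markers summed to 152 and 160 in the LOVO libraries against 6.44 and 6.64 in HCT116, and 5 against 2 of them reached an FPKM of 1. FBLN1, at 107 and 96.9, LUM, at 31.4 and 50.4, and DCN, at 10.4 and 9.97, carried the LOVO sums, while POSTN had 0 reads in all 4 libraries, PDPN 0 or 1 and PDGFRA 0 to 5. Of 5 endothelial markers, PECAM1 reached 6.35 in LOVO spheroids against 0.0359 in adherent LOVO cells. CDH5 stood at 1.42 and 1.05 in the same libraries, and KDR had 0 reads there. VWF and CLDN5 stayed below an FPKM of 1 in all 4 libraries. All 5 leukocyte markers stayed below 1. These markers move with the comparison of the lines, and in these bulk libraries a different mixture of cells cannot be told apart from a different level per cell. The markers leave the identity of the libraries labelled LOVO in doubt, so LOVO stands for that label throughout and a difference between HCT116 and LOVO is one between libraries so labelled. The part of these markers in those differences was not tested.

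Stretches of DNA upstream of the start annotated by RefSeq were read for 5 chain genes or gene pairs whose levels set the libraries apart. They come from RefSeq promoter windows on GRCh38.p14, in which 32 of the 44 chain genes were found, and each is written 5′ to 3′ on the strand of the gene. Capitals mark TATAAA for the TATA box, CCAAT for the CAAT box, GGGCGG for the GC box and their reverse complements, since both strands were searched, and no marked stretch overlaps another. The interval between the starts of the divergent COL4A1 and COL4A2, at chr13:110307158-110307283, is shown because both chains were near 0 in HCT116 and high in LOVO, and it is written on the plus strand, from which COL4A2 is transcribed. COL5A1, at chr9:134641553-134641802 on the plus strand, and COL7A1, at chr3:48595330-48595579 on the minus strand, are shown for their higher level in the LOVO libraries. COL6A2, at chr21:46097862-46098111, and COL13A1, at chr10:69801656-69801905, both on the plus strand, are shown for their lower level there. The gene coordinates that came with the FPKM differ from the RefSeq starts. They put the outer start of COL4A1, COL5A1, COL6A2 and COL13A1 inside the stretch shown. For COL4A2 they give 110305812, so that COL4A1 and COL4A2 overlap there.
COL4A1/COL4A2: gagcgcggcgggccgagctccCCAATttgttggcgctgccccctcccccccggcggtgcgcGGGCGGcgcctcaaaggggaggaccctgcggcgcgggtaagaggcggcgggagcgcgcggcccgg
COL5A1: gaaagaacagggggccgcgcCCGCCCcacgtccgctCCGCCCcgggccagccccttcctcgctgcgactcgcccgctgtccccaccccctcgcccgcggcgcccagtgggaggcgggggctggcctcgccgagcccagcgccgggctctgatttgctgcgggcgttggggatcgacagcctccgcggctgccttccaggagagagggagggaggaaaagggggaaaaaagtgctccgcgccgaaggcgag
COL7A1: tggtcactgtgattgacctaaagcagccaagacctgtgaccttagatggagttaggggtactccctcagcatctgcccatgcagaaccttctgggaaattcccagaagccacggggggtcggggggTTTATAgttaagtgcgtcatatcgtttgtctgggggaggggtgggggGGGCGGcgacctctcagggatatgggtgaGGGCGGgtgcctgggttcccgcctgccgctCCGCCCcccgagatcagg
COL6A2: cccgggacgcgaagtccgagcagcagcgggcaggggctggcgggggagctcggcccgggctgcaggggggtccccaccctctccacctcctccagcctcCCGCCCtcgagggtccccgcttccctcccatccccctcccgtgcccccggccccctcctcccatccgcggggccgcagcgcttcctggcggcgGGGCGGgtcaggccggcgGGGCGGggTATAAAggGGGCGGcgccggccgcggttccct
COL13A1: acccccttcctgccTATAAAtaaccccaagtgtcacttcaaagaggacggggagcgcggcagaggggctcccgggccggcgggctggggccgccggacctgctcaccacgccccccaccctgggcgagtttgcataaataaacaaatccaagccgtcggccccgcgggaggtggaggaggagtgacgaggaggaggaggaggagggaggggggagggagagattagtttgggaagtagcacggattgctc

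The interval of 126 bases between COL4A1 and COL4A2 held 1 CCAAT and 1 GC box and no TATAAA, with a G+C content of 80.2%. COL5A1 carried 2 GC boxes and neither other motif in the 250 bases shown, COL7A1 carried 3 GC boxes and 1 TATAAA, and COL6A2 carried 4 GC boxes and 1 TATAAA. COL13A1 held a TATAAA near the far end of its stretch and no GC box. Over windows of 300 bases, from 250 before to 50 after the start, with 1 start taken for each gene, a GC box was present in 18 of the 32 chain genes (56.2%), CCAAT in 10 (31.2%) and TATAAA in 5 (15.6%). Among all 35116 windows of the table, where a gene can have several starts, the same motifs were in 45.0%, 34.6% and 11.5%. With every start counted in the same way, the 44 windows of the chain genes held them in 54.5%, 31.8% and 18.2%. These are matches of letters and not shown to be used sites. The starts of the other head-to-head collagen IV pairs lay 418 bases apart for COL4A3 and COL4A4 and 379 bases apart for COL4A5 and COL4A6.

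The 44 chains together were higher in spheroids than in adherent cells of the same line and higher in LOVO than in HCT116. Their summed FPKM was 144 in adherent and 242 in spheroid HCT116 cells, and 341 in adherent and 451 in spheroid LOVO cells, or 0.108%, 0.186%, 0.337% and 0.462% of the reads on genes. A few chains carried each sum. The 5 chains with the highest FPKM made up 75.5% to 79.4% of it in every library, but the leading chain was COL6A2 in adherent and COL6A1 in spheroid HCT116 cells, and COL12A1 in adherent and COL8A1 in spheroid LOVO cells. Of the 44 chains, 26 reached an FPKM of 1 in at least 1 library and 10 did so in all 4. Of the other 18, 12 exceeded 3 reads in at least 1 library, while COL1A2, COL11A1, COL22A1, COL6A5, COL9A1 and COL19A1 had 3 reads or fewer everywhere and the last 3 of these had 0.

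**Figure D1:**
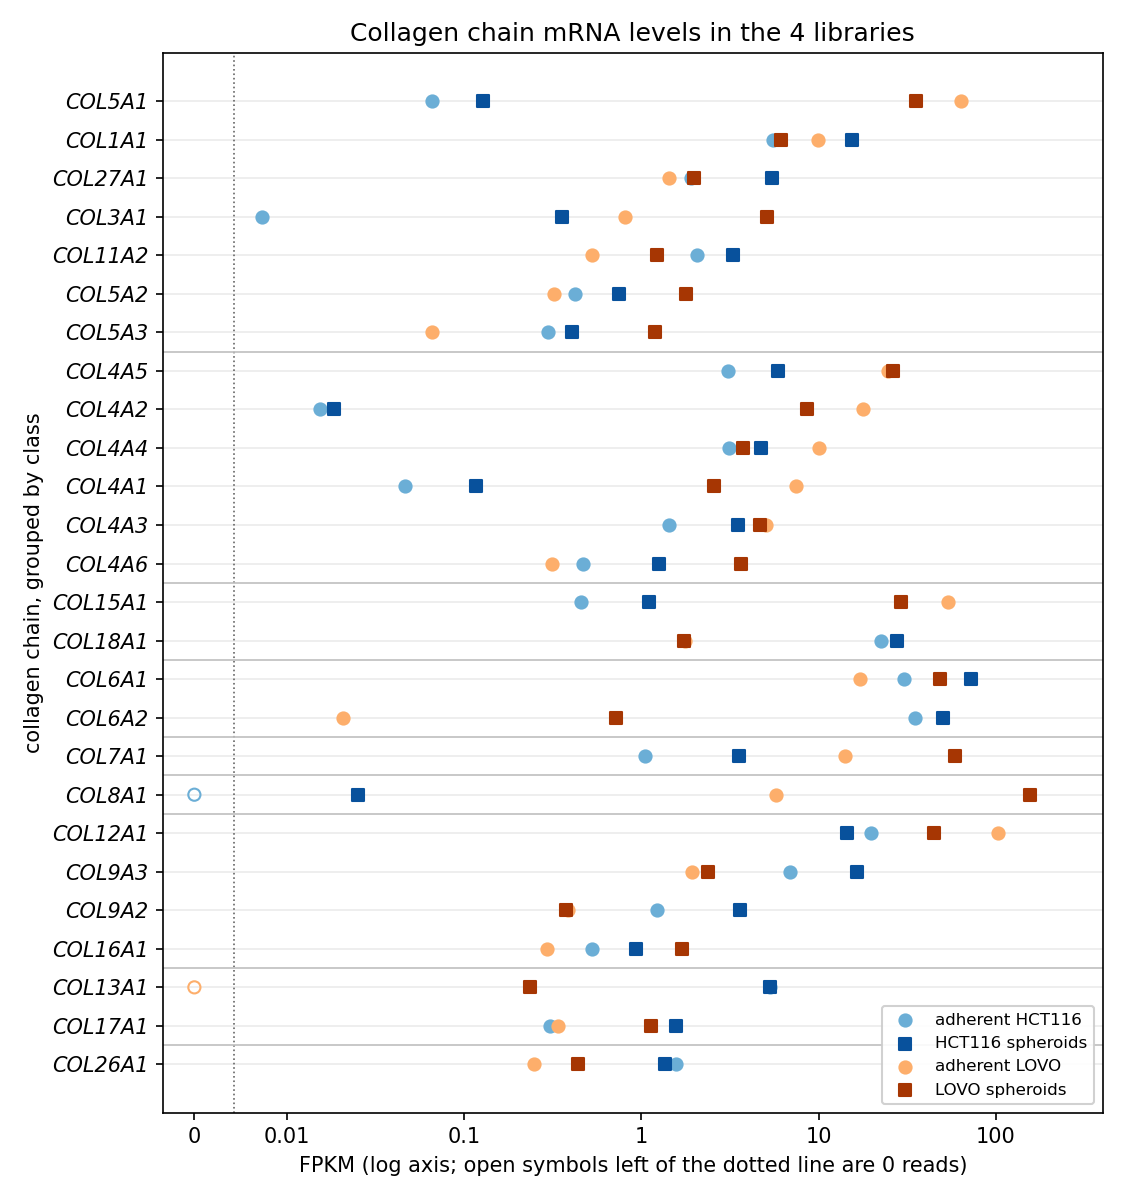
FPKM of the 26 chains that reached 1 in at least 1 library, on a log axis, grouped by class with 1 symbol for each of the 4 libraries (circles for adherent cells, squares for spheroids, blue for HCT116, orange and brown for LOVO). COL5A1, COL4A1, COL4A2 and COL15A1 lie far to the right in both LOVO libraries, COL6A2, COL18A1 and COL13A1 lie to the right in both HCT116 libraries, and COL8A1 spans from 0 in adherent HCT116 cells to 156 in LOVO spheroids.

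By class, the beaded filament chains of collagen VI made up 45.4% and 50.9% of the summed FPKM in adherent HCT116 cells and HCT116 spheroids, against 5.02% and 11.0% in adherent LOVO cells and LOVO spheroids. The short-chain network collagens VIII and X made up 34.8% in LOVO spheroids, 1.71% in adherent LOVO cells and 0.0487% and 0.0520% in the HCT116 libraries. FACIT chains, which attach to the surface of fibrils, were the largest class in adherent LOVO cells at 31.1%, followed by fibrillar chains at 22.4% and collagen IV at 19.2%. In LOVO spheroids these shares were 11.1%, 11.8% and 10.9%. The class that led was therefore the same in both HCT116 libraries and differed between the LOVO libraries.

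**Figure D2:**
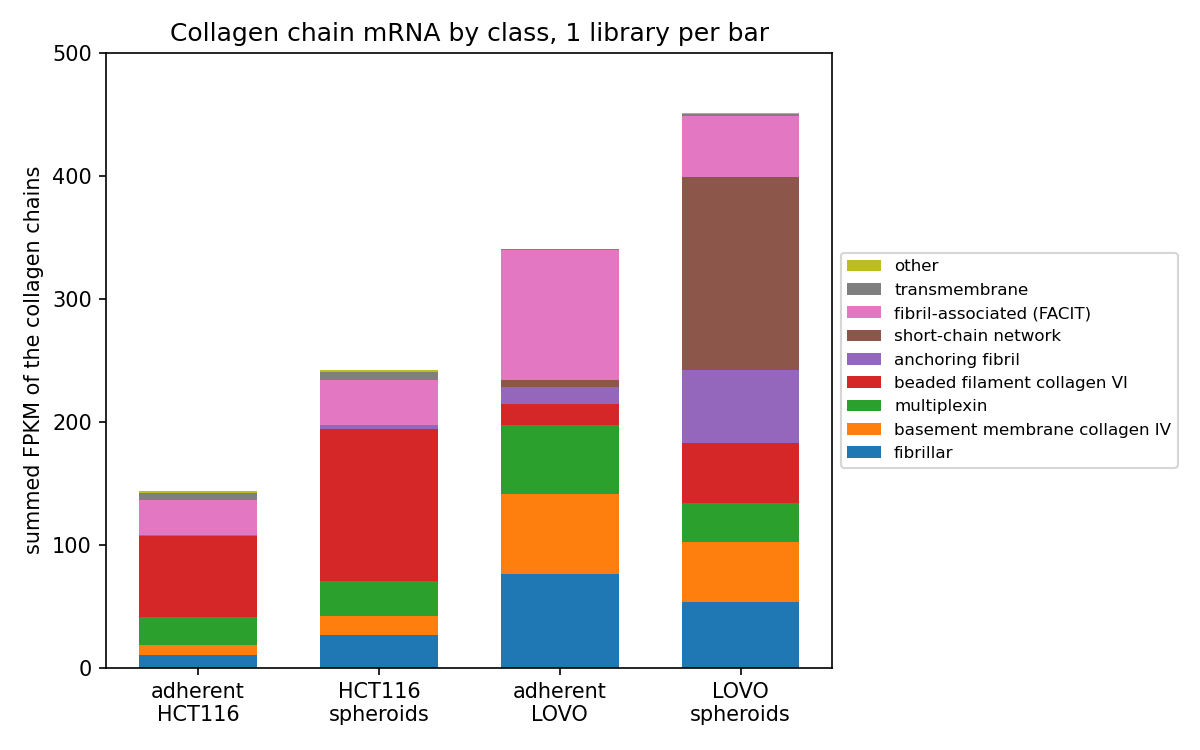
Summed FPKM of the 44 collagen chains in each of the 4 libraries, stacked by class, with 1 library per bar and no error bar. Collagen VI (red) fills 45.4% and 50.9% of the HCT116 bars, and the short-chain network class (brown) fills 34.8% of the bar of LOVO spheroids and 1.71% of that of adherent LOVO cells.

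Among the fibrillar chains, COL5A1 had the highest FPKM in both LOVO libraries and was low in both HCT116 libraries, where COL1A1 led. COL5A1 encodes a chain of collagen V, which sits inside collagen I fibrils and sets their diameter. Its FPKM was 0.0658 in adherent (15 reads) and 0.128 in spheroid (24 reads) HCT116 cells, and 63.2 in adherent and 35.6 in spheroid LOVO cells. Both LOVO libraries were far above both HCT116 libraries, with a log2 ratio of 9.91 in adherent cells (counting interval 9.19 to 10.75) and 8.13 in spheroids (7.55 to 8.77). Within LOVO it was 1.77-fold lower in spheroids, with a log2 ratio of -0.83 (-0.87 to -0.79), and within HCT116 the interval of the ratio, -0.03 to 1.99, included 0. COL5A2, its usual partner, stood at 0.421 in adherent and 0.751 in spheroid HCT116 cells, and 0.322 in adherent and 1.79 in spheroid LOVO cells. The levels of COL5A2 overlapped between the lines, so that the FPKM ratio of COL5A1 to COL5A2 was 0.156 and 0.170 in HCT116 but 197 (146 to 272) in adherent LOVO cells and 19.9 (17.6 to 22.5) in LOVO spheroids. COL5A3, the third collagen V chain, read 0.298, 0.406, 0.0661 and 1.20 in the same order of libraries. It was highest in LOVO spheroids, where its log2 ratio to adherent LOVO cells was 4.18 (3.17 to 5.42), from 8 and 163 reads.

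COL1A1, the main chain of collagen I, had an FPKM of 5.51 in adherent and 15.5 in spheroid HCT116 cells, and 9.89 in adherent and 6.10 in spheroid LOVO cells. The lines overlapped, and the direction of the difference between spheroids and adherent cells was opposite in them, with a log2 ratio of 1.49 (1.39 to 1.59) in HCT116 and -0.70 (-0.80 to -0.59) in LOVO. COL1A2, which normally pairs with COL1A1 in the collagen I heterotrimer, had 0, 1, 0 and 1 reads. COL1A1 was therefore at least 418-fold above COL1A2 in adherent HCT116 cells and at least 659-fold above it in adherent LOVO cells, taking 3 reads per library as the floor. COL3A1, the homotrimeric collagen of loose connective tissue, read 0.00720 (1 read), 0.358 (41 reads), 0.811 (99 reads) and 5.13 (703 reads). LOVO spheroids stood apart as the highest, with a log2 ratio to adherent LOVO cells of 2.66 (2.36 to 2.98). In HCT116 the ratio of COL3A1 rested on 1 read in adherent cells and its interval ran from 3.08 to 10.97. COL27A1, a fibrillar chain known from cartilage, read 1.92, 5.45, 1.44 and 1.98, and COL11A2, a collagen XI chain, read 2.05, 3.28, 0.529 and 1.22. COL27A1 and COL11A2 were each highest in HCT116 spheroids, and each was higher in the spheroids of both lines.

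The collagen IV chains fell into pairs that behaved differently. COL4A1 and COL4A2 form the common basement membrane heterotrimer and are transcribed away from each other, with RefSeq starts at the ends of the interval printed above. COL4A1 had an FPKM of 0.0466 (14 reads) in adherent and 0.117 (29 reads) in spheroid HCT116 cells, and 7.43 in adherent and 2.56 in spheroid LOVO cells. COL4A2 had 0.0153 (6 reads), 0.0185 (6 reads), 17.7 and 8.55. Both chains were near the detection limit in HCT116, high in LOVO and lower in LOVO spheroids than in adherent LOVO cells, with log2 ratios of -1.54 (-1.66 to -1.42) for COL4A1 and -1.05 (-1.11 to -0.99) for COL4A2. In the LOVO libraries the FPKM ratio of COL4A1 to COL4A2 was 0.419 (0.398 to 0.441) in adherent cells and 0.299 (0.276 to 0.324) in spheroids. In HCT116 spheroids COL4A1 exceeded adherent cells by a log2 ratio of 1.33 (0.36 to 2.36), while the interval for COL4A2, -1.62 to 2.18, included 0.

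COL4A3, COL4A4 and COL4A5 form the collagen IV of specialised basement membranes, such as that of the kidney glomerulus. COL4A5 had an FPKM of 3.08 in adherent and 5.92 in spheroid HCT116 cells, and 24.8 in adherent and 26.2 in spheroid LOVO cells. It was higher in both LOVO libraries, and it was 1.92-fold higher in HCT116 spheroids than in adherent cells against 1.06-fold in LOVO. COL4A4 read 3.13, 4.72, 9.99 and 3.75, and COL4A3 read 1.44, 3.53, 5.02 and 4.68. For COL4A4 the lines overlapped, with a log2 ratio of spheroids to adherent cells of 0.59 (0.44 to 0.75) in HCT116 and -1.41 (-1.54 to -1.29) in LOVO. For COL4A3 that ratio was 1.30 (1.08 to 1.51) in HCT116, while in LOVO its interval, -0.24 to 0.04, included 0. COL4A6, which pairs with COL4A5 in other basement membranes, read 0.465, 1.25, 0.312 and 3.66. It was highest in LOVO spheroids, 11.7-fold above adherent LOVO cells (log2 ratio 3.55, interval 3.14 to 3.99). The ratio of COL4A5 to COL4A6 was accordingly 79.3 in adherent LOVO cells and 4.74 to 7.14 in the other 3 libraries.

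The partner chains of collagen VI also stood at unequal levels. COL6A1, which forms trimers with COL6A2 and COL6A3, had an FPKM of 30.2 in adherent and 72.8 in spheroid HCT116 cells, and 17.0 in adherent and 48.7 in spheroid LOVO cells. It was higher in the spheroids of both lines, with log2 ratios of 1.27 (1.21 to 1.33) in HCT116 and 1.52 (1.44 to 1.60) in LOVO, while the lines overlapped. COL6A2 had an FPKM of 35.1 (3850 reads), 50.4 (4561 reads), 0.0207 (2 reads) and 0.720 (78 reads). COL6A2 was thus abundant in both HCT116 libraries and almost absent from both LOVO libraries, with a log2 ratio of LOVO to HCT116 of -10.73 (-13.77 to -8.87) in adherent cells and -6.13 (-6.47 to -5.81) in spheroids. In LOVO spheroids the COL6A1 level was 67.7 times that of COL6A2 (54.1 to 85.8). COL6A3, the long chain needed for the classical trimer, had 27, 13, 0 and 6 reads over its 19633 bases, far below COL6A1 in every library. COL6A5 had 0 reads and COL6A6 had 1 to 10. COL6A1 and COL6A2 are neighbours on chromosome 21, at 45981737 to 46005050 and 46098097 to 46132849 on the plus strand.

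COL7A1 encodes the only chain of collagen VII, the anchoring fibril of squamous and mucosal basement membranes. Its FPKM was 1.05 in adherent and 3.53 in spheroid HCT116 cells, and 14.0 in adherent and 58.9 in spheroid LOVO cells. The 4 libraries were ordered without overlap by line and then by growth form, with the spheroids higher in each line, by a log2 ratio of 1.76 (1.54 to 1.98) in HCT116 and 2.07 (2.01 to 2.13) in LOVO. COL8A1, a short chain of the collagen VIII network known from vessel walls and Descemet's membrane, had 0 reads in adherent and 4 in spheroid (FPKM 0.0253) HCT116 cells, and 970 in adherent (5.75) and 29579 in spheroid (156) LOVO cells. LOVO spheroids stood far above the other libraries, 27.2-fold above adherent LOVO cells (log2 ratio 4.76, 4.67 to 4.86). Adherent LOVO cells were at least 367-fold above adherent HCT116 cells, against the floor of 3 reads. Its partner COL8A2 followed at a much lower level, with 3, 3, 6 and 84 reads and a log2 ratio of 3.64 (2.46 to 5.13) between the LOVO libraries. PECAM1, 1 of the endothelial markers given above, was also higher in LOVO spheroids than in adherent LOVO cells. The other endothelial markers differed less between adherent and spheroid LOVO cells. CDH5 stood at 1.05 and 1.42, VWF at 0.0376 and 0.0670 and CLDN5 at 0.0976 and 0.116, and KDR had 0 reads. The part of such markers in the collagen VIII difference was not tested.

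COL12A1, a FACIT chain that bridges collagen I fibrils, was the one chain of the 26 with a lower FPKM in the spheroids of both lines. Its FPKM was 19.8 in adherent and 14.4 in spheroid HCT116 cells, and 103 in adherent and 44.5 in spheroid LOVO cells. Both LOVO libraries were above both HCT116 libraries, and the spheroids were lower in each line, by a log2 ratio of -0.46 (-0.53 to -0.39) in HCT116 and -1.21 (-1.25 to -1.18) in LOVO. COL9A3 and COL9A2, chains of the cartilage collagen IX, read 6.93 and 1.22 in adherent and 16.6 and 3.61 in spheroid HCT116 cells, and 1.94 and 0.383 in adherent and 2.38 and 0.377 in spheroid LOVO cells. These chains kept a similar ratio to each other in the 4 libraries, and both were higher in HCT116 and highest in its spheroids. The third chain of the collagen IX heterotrimer, COL9A1, had 0 reads throughout. COL16A1, a FACIT chain of smooth muscle and skin, read 0.529, 0.931, 0.295 and 1.68, and was 5.71-fold higher in LOVO spheroids than in adherent LOVO cells.

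The multiplexins COL15A1 and COL18A1, basement membrane proteoglycans whose C-terminal ends release the restin and endostatin fragments, had opposite patterns. COL15A1 had an FPKM of 0.457 in adherent and 1.10 in spheroid HCT116 cells, and 53.9 in adherent and 29.3 in spheroid LOVO cells. COL18A1 had 22.4, 27.8, 1.76 and 1.73. COL15A1 was high in both LOVO libraries and COL18A1 in both HCT116 libraries, with log2 ratios of LOVO to HCT116 in adherent cells of 6.88 (6.52 to 7.26) and -3.67 (-3.85 to -3.49). Between spheroids and adherent cells COL15A1 differed by a log2 ratio of 1.27 (0.82 to 1.73) in HCT116 and -0.88 (-0.93 to -0.82) in LOVO. Of the exonic bases of COL18A1, 16.4% overlap exons of SLC19A1 on the opposite strand, and whether the counting used strand is not given in the sources used here.

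Of the transmembrane collagens, COL13A1, found at cell adhesion sites, had an FPKM of 5.31 in adherent and 5.35 in spheroid HCT116 cells, and 0 in adherent and 0.236 (28 reads) in spheroid LOVO cells. Between growth forms of HCT116 the interval of the log2 ratio, -0.16 to 0.18, included 0, and adherent LOVO cells were at least 187-fold lower than adherent HCT116 cells. COL17A1, the hemidesmosome collagen of epithelia, read 0.306, 1.57, 0.339 and 1.13. It was higher in the spheroids of both lines, with log2 ratios of 2.36 (1.88 to 2.87) in HCT116 and 1.73 (1.24 to 2.25) in LOVO, and the lines overlapped. COL26A1 read 1.57, 1.36, 0.247 and 0.441, with both HCT116 libraries above both LOVO libraries.

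The chains below an FPKM of 1 in every library included some with large ratios on few reads. COL14A1, a FACIT chain, was 9.63-fold higher in LOVO spheroids than in adherent LOVO cells, from 162 and 15 reads. COL24A1 had 3 and 32 reads in the adherent and spheroid libraries of HCT116, with a log2 ratio of 3.69 (2.02 to 6.05), and 2 and 7 reads in LOVO. COL21A1 had 32, 54, 10 and 2 reads, which put both HCT116 libraries above both LOVO libraries. COL20A1, another FACIT chain, had 14, 28, 0 and 5 reads, with a log2 ratio of LOVO to HCT116 in spheroids of -2.75 (-4.48 to -1.35). Apart from COL8A2, described above, each of the remaining chains of this group had at most 27 reads in any library.

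The comparison of spheroids with adherent HCT116 cells asked which genes accompany sphere growth in that line. Genes whose FPKM averaged at least 1 were counted, which kept 14429 genes and 21 of the 44 chains. The difference was taken between values of log2(FPKM + 1), on which low genes appear to differ less than they do. A chain high in a single library can pass such a filter through that library, so the counts below describe those 21 chains and not the family. No chain was above the log2 difference of 2 taken from the study's methods (1 with a pseudocount of 0.1), where 0.201% of all genes compared lay, and none was below -2 (0.506%). Above 1 were COL6A1, COL1A1, COL7A1, COL9A3, COL27A1 and COL9A2, or 6 of 21 chains, against 2.19% of all genes, and none was below -1 (3.33%). On the ratio of reads, 23 of the 36 chains with more than 3 reads in at least 1 of the libraries had an interval wholly above 0 and 1, COL12A1, had an interval wholly below it, against 24.1% and 23.7% of all genes. The median log2 difference was 0.51 over the 21 chains and 0.10 over all 44, beside -0.03 over the genes compared and 0.00 over the whole table.

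In LOVO the directions were mixed. COL8A1 alone was above a log2 difference of 2 (background 1.81%), but 4 chains were above it with TPM, 5 with a pseudocount of 0.1 and 2 when centred on the median or divided by the summed reads on genes. With TPM 661 of all genes were above it, against 261 as reported. None of the 21 chains was below -2 (0.943%). Above 1 were COL8A1, COL7A1, COL4A6, COL3A1 and COL6A1, against 8.57% of all genes, and below -1 were COL4A1, COL4A4 and COL12A1, against 7.85%. Intervals wholly above 0 were found for 19 of 36 chains (31.4% of all genes) and wholly below 0 for 8 (31.3%). The median was 0.08 over the 21 chains and 0.03 over all 44, beside -0.06 over the genes compared. Of the 26 chains that reached an FPKM of 1, 15 had a higher FPKM in the spheroids of both lines and 1, COL12A1, a lower one in both, against 28.8% and 31.1% of the 17498 genes that reached an FPKM of 1. Another 9 were higher in HCT116 spheroids and lower in LOVO spheroids (17.3% of those genes), and COL26A1 had the opposite order (17.5%). These orders rest on FPKM alone, also where a counting interval included 0. Of the 9, only COL1A1, COL15A1, COL4A1 and COL4A4 had intervals clear of 0 in both lines.

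**Figure D3:**
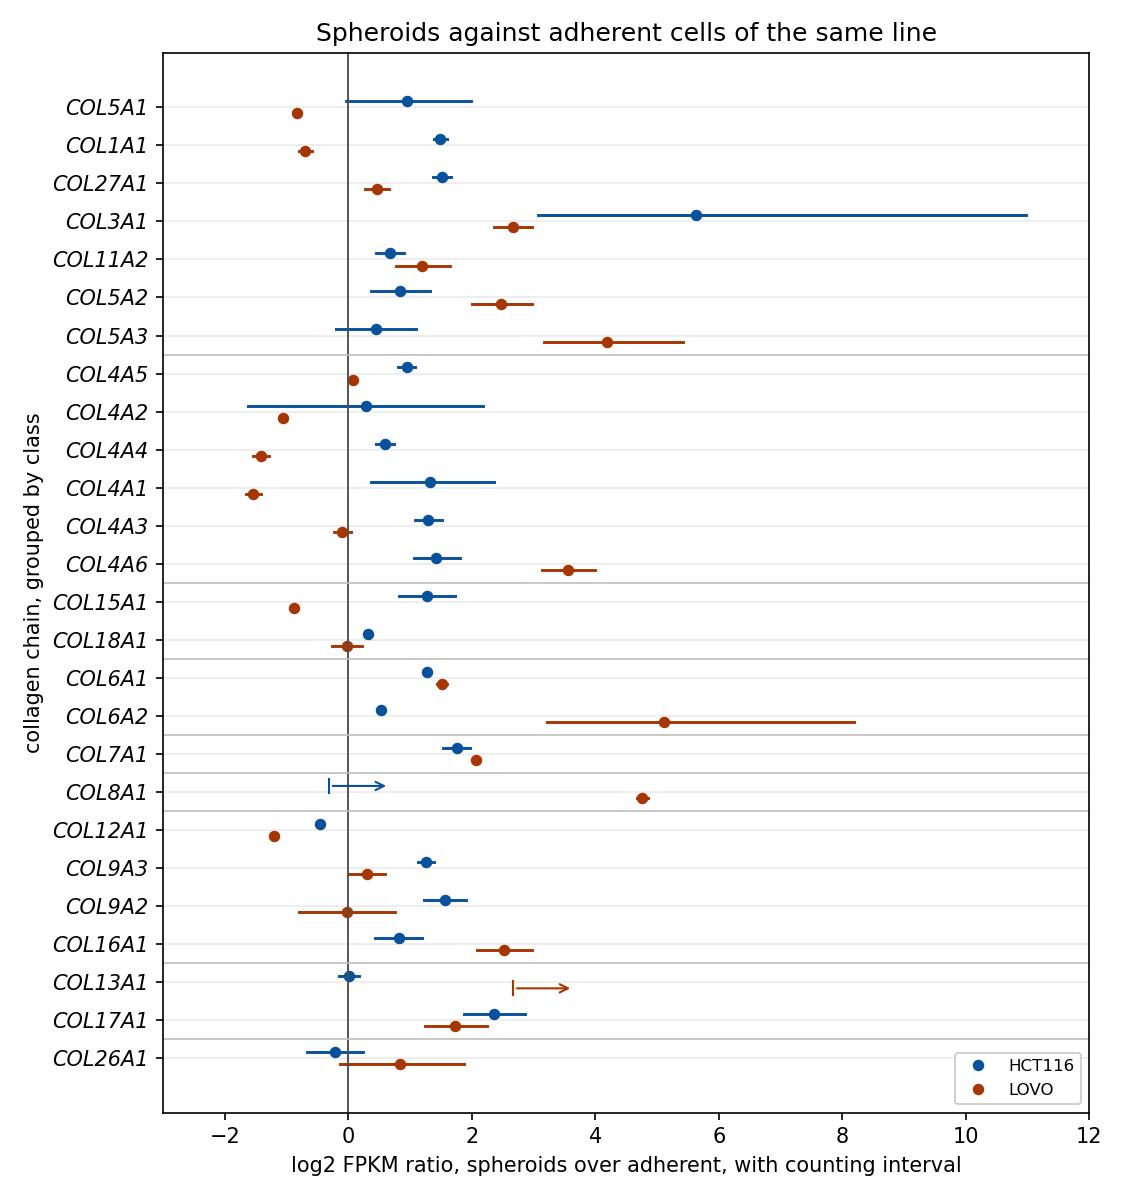
Log2 FPKM ratio of spheroids to adherent cells for the 26 chains in HCT116 (blue) and LOVO (brown), with 95% counting intervals from 1 library per condition; arrows mark an interval that is open because the adherent library had 0 reads. COL7A1, COL6A1 and COL17A1 lie to the right of 0 in both lines, COL12A1 lies to the left in both, and COL4A1, COL4A4, COL15A1 and COL1A1 lie on opposite sides.

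Across the lines, limma was fitted to the 4 libraries with a term for the line, and HCT116 and LOVO then served as the replicates, which left 1 residual degree of freedom. No gene passed an adjusted p of 0.05 in limma for spheroids against adherent cells (0.0% of 14429 genes in each direction), while 617 higher (4.28%) and 928 lower genes (6.43%) had an unadjusted p under 0.05. Among the 21 chains, COL6A1, COL7A1 and COL4A6 were among the former and COL12A1 among the latter. COL6A1 had a limma log2 difference of 1.35 (SE 0.25, adjusted p = 0.462) and COL7A1 one of 1.57 (SE 0.31, adjusted p = 0.462), both higher in spheroids in 2 of 2 lines. COL8A1, with the largest limma difference among the chains at 2.29, had a standard error of 1.06, since LOVO alone carried it. No chain passed the adjusted threshold for growth form in this fit.

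The comparison of LOVO with HCT116 showed the larger differences. In adherent cells 8 of the 21 chains were above a log2 difference of 2, namely COL5A1, COL15A1, COL4A2, COL4A1, COL4A5, COL7A1, COL8A1 and COL12A1, against 5.26% of all genes, and COL6A2, COL18A1 and COL13A1 were below -2, against 5.59%. In spheroids COL8A1, COL5A1, COL15A1, COL7A1, COL4A2 and COL3A1 were above 2 (background 5.68%), and COL6A2, COL18A1, COL13A1 and COL9A3 were below -2 (4.71%). The median log2 difference was 0.85 in adherent cells and 0.33 in spheroids over the 21 chains, -0.01 and -0.00 over all 44, and 0.07 and 0.04 over the genes compared. Of the 26 chains with an FPKM of 1, 10 had both LOVO libraries above both HCT116 libraries, 7 had both below, and 9 overlapped. The share without overlap, 65.4%, was near the 64.1% of the 17498 genes with an FPKM of at least 1 in at least 1 library.

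**Figure D4:**
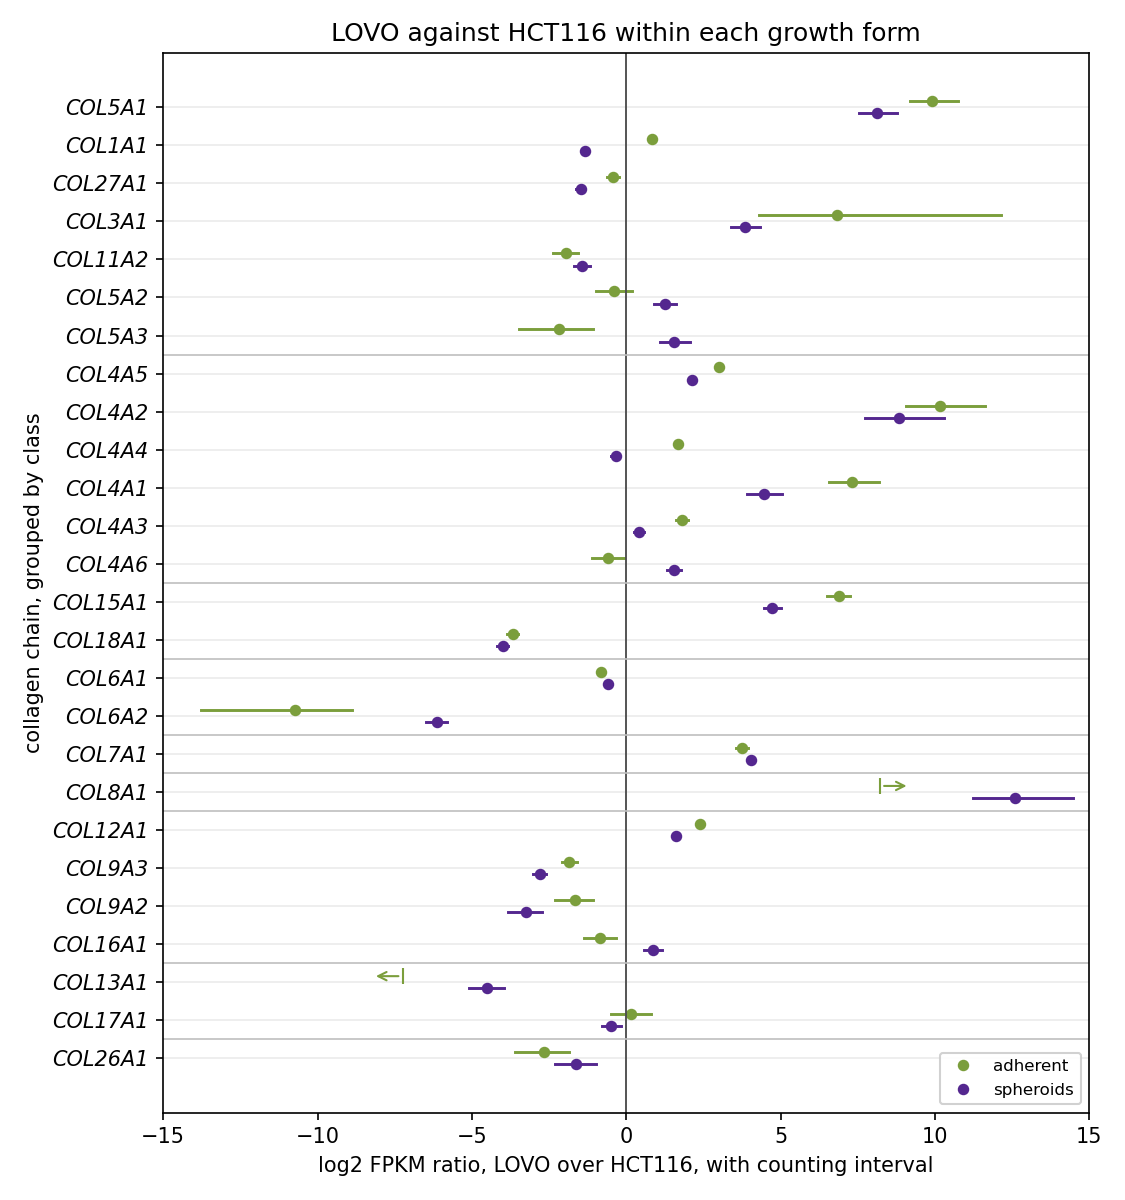
Log2 FPKM ratio of LOVO to HCT116 for the 26 chains in adherent cells (green) and in spheroids (purple), with 95% counting intervals from 1 library per condition; arrows mark an open interval where 1 library had 0 reads. COL5A1, COL4A1, COL4A2, COL15A1, COL7A1 and COL8A1 lie to the right in both growth forms and COL6A2, COL18A1 and COL13A1 to the left in both.

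In the limma fit for LOVO against HCT116, with growth form as the covariate, 12 of the 21 chains passed an adjusted p of 0.05. Of these, 8 were higher in LOVO (12.6% of all genes) and 4 lower (12.1%). Some of the 21 chains, such as COL5A1 and COL6A2, passed the filter on mean FPKM only through the line where they were high. The count therefore describes those chains and not the family. The growth forms stand in for replicates here, so the test measures how far the difference between the lines held in both forms and not the spread between cultures. COL5A1 was higher in LOVO by 5.47 (SE 0.32, limma adjusted p = 0.00404) and COL15A1 by 4.54 (SE 0.40, limma adjusted p = 0.00659). COL4A2, at 3.72, COL7A1, at 3.30, COL4A1, at 2.34, COL4A5, at 2.32, and COL12A1, at 1.95, were higher as well. COL8A1, at 5.01, had the widest error of them (SE 1.06, limma adjusted p = 0.0332). Without growth form as covariate COL12A1 (limma adjusted p = 0.0548) and COL8A1 (limma adjusted p = 0.0726) no longer passed. COL6A2 was lower in LOVO by -5.02 (SE 0.25, limma adjusted p = 0.00369), followed by COL18A1 at -3.24, COL13A1 at -2.51 and COL9A3 at -1.91. COL1A1, at -0.24 (SE 0.51, limma adjusted p = 0.752), and COL6A1, at -0.68 (SE 0.25, limma adjusted p = 0.110), did not pass. The marker sums given above differed between the same libraries, 152 and 160 against 6.44 and 6.64 for the fibroblast list, and their part in these results was not tested.

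The genes that make, export, crosslink, bind and cleave collagen were read from 6 lists with 60 genes in all, of which 42 entered the comparison. In HCT116 spheroids 1 of the 42, the endocytic collagen receptor MRC2, was above a log2 difference of 1, at 1.002, and none was below -1. Over all genes the shares were 2.19% and 3.33%, so the 1 higher gene was near the share over all genes. In LOVO spheroids 17 were above 1 and 1 was below -1, against the 8.57% and 7.85% of all genes given above. Between the lines 8 of the 42 genes were above 2 and 2 below -2 in adherent cells, against 5.26% and 5.59% of all genes, and 10 and 1 in spheroids, against 5.68% and 4.71%. The 2 lower genes in adherent cells and the 1 in spheroids were thus near or below the share over all genes.

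Among the enzymes and chaperones of chain modification and folding, SERPINH1, the collagen-specific chaperone HSP47, had an FPKM of 9.01 in adherent and 6.20 in spheroid HCT116 cells, and 72.3 in adherent and 73.5 in spheroid LOVO cells. PLOD2, a lysyl hydroxylase, read 6.01, 10.5, 38.9 and 53.2. Both were higher in both LOVO libraries and differed less between the growth forms. P3H2, a prolyl 3-hydroxylase known to act on collagen IV, read 0.797, 0.765, 25.9 and 6.34. P3H2 was the gene below -1 in LOVO spheroids, at a log2 difference of -1.87. The collagen IV chains were mixed in that library. COL4A1, COL4A2 and COL4A4 were lower than in adherent LOVO cells, and the interval of COL4A3 included 0. COL4A5 was 1.06-fold and COL4A6 11.7-fold higher. A relation to P3H2 was not tested. P3H3, P3H1, P4HA3 and PLOD1 were each higher in LOVO spheroids than in adherent LOVO cells, by log2 differences of 1.75, 1.49, 1.41 and 1.34.

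Of the crosslinking lysyl oxidases, LOXL2 had an FPKM of 15.3 in adherent and 27.5 in spheroid HCT116 cells, and 24.8 in adherent and 126 in spheroid LOVO cells, and LOX read 0.133, 0.279, 5.26 and 17.2. LOVO spheroids were the highest library for LOXL2, LOX and LOXL4, with log2 differences from adherent LOVO cells of 2.30, 1.54 and 2.03. Of the receptors, ITGA1, a subunit of a collagen-binding integrin, read 0.322, 0.503, 7.88 and 29.3, and ITGA2, the subunit of another, read 33.4, 42.9, 2.67 and 28.1. ITGA1 was higher in both LOVO libraries, while ITGA2 was low in adherent LOVO cells alone. TIMP1, an inhibitor of matrix metalloproteinases, read 105, 121, 109 and 467, and MMP14, a membrane-bound collagenase, read 5.78, 8.67, 6.20 and 17.9. Both were highest in LOVO spheroids, by log2 differences of 2.09 and 1.39 from adherent LOVO cells. ADAMTS14, a procollagen N-proteinase, ran the other way between the lines, at 6.35 and 10.5 in HCT116 against 0.159 and 0.255 in LOVO. Of the basement membrane partners, the proteoglycan AGRN read 16.1, 21.4, 91.7 and 122, higher in both LOVO libraries.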

How the data were processed

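RNA-seq libraries were prepared from total RNA with the SMARTER mRNA-Seq kit. The authors deposited 1 FPKM value per gene and library, with gene length and coordinates; the aligner, the counting tool and the use of strand are not given in the sources used here. The submitters' processing notes list the builds GRCm38 and mm10, which are mouse builds, whereas the coordinates and exonic lengths of all 44 chains equalled those of human GENCODE 29 on GRCh38. The study's results section names oxaliplatin at 1 μg/ml for the spheroids, where the label gives 1 mg/ml.

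FPKM times gene length was a whole multiple of 1 step per library for 100% of the values above 0 (tolerance 0.05 reads), which gave back the reads. Log2(FPKM + 1) differences were counted over genes whose FPKM averaged at least 1. The threshold of 2 comes from the study's methods, and the logarithm there was taken as base 2. Counting intervals (95%, Clopper-Pearson) were given for genes with more than 3 reads in at least 1 of the libraries compared, and 3 reads per library were the floor of lower bounds. Limma 3.58.1 (lmFit, eBayes with trend, Benjamini-Hochberg adjustment over 14429 genes) ran in R 4.3.3. Limma was tried on simulated reads with 200 genes raised 8-fold in the spheroids of both lines. The simulated reads had a small spread around means that both growth forms of a line shared, so recovery of such large differences was likely in advance. Limma recovered 200, which says nothing about smaller differences, a wider spread or differences unequal between the lines. It also made 136 false calls, more than an adjusted p of 0.05 should let through. Their median gene length was 107 bases, against 4273 bases over 14527 genes, and none was a chain. Only the growth form term was simulated, so the adjusted p-values for LOVO against HCT116 were not checked in this way. Other steps used Python 3.11.15, numpy 2.4.6, pandas 2.3.3, scipy 1.17.1 and matplotlib 3.10.9. The deposited FPKM were also rescaled to TPM as an alternative.

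Members and lists were chosen with earlier results of these data known. Values in every library were given for chains with an FPKM of at least 1 in at least 1 library and for heterotrimer partners, other chains were named where the ratio of reads passed a log2 of 2 with its interval clear of 0, and of the other lists genes past a log2 difference of 1 between growth forms or 2 between lines could be named, up to 5 per list and comparison. No count-based test was run, and with 1 library per condition no replicate could be left out.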

Additional observations from a re-analysis of the deposited data

Results flagged for a closer look

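Chains with opposite directions in the lines were singled out where the counting intervals of spheroids against adherent cells excluded 0 in both. COL1A1 had a log2 FPKM ratio of 1.49 in HCT116 and -0.70 in LOVO. COL15A1 had 1.27 in HCT116 and -0.88 in LOVO. For COL4A1 the ratio was 1.33 in HCT116, from 14 and 29 reads, and -1.54 in LOVO. For COL4A4 it was 0.59 in HCT116 and -1.41 in LOVO. The difference between the lines was not tested for these chains, since each condition had 1 library.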

How the results depend on the processing

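With 1 library per condition no replicate could be left out, and depth limits chains with few reads to their counting intervals. The chains past a log2 difference of 2 were counted again under each alternative. In HCT116 spheroids the count of higher chains was 0 as reported, 1 with a pseudocount of 0.1 and 6 at a threshold of 1. In LOVO spheroids it was 1 as reported, 4 with TPM, 2 when centred on the median or divided by the summed reads on genes, and 5 with a pseudocount of 0.1 or at a threshold of 1, where 3 chains were lower. Between LOVO and HCT116 spheroids, 10 of the 21 chains were higher and 7 lower at a threshold of 1, against 2554 and 2162 of the 14429 genes compared. The summed FPKM of the chains became 459 in adherent and 782 in spheroid HCT116 cells, and 1122 in adherent and 1712 in spheroid LOVO cells as TPM, with the same order. Divided by the summed reads on genes it became 263 for HCT116 spheroids, and 309 and 475 for the adherent and spheroid LOVO libraries.

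Over all genes, the counts higher and lower moved as follows. In HCT116 spheroids they were 80 and 129 with TPM, 316 and 480 at a threshold of 1, 128 and 184 with a pseudocount of 0.1, and 13 higher with a mean FPKM of at least 5. In LOVO spheroids they were 1236 and 1133 at a threshold of 1, 748 and 274 with a pseudocount of 0.1, and 661 higher with TPM and 156 higher with a mean FPKM of at least 5. For LOVO against HCT116 in adherent cells they were 1180 and 1365 with TPM, 2505 and 2369 at a threshold of 1, 1304 and 1602 with a pseudocount of 0.1, and 407 lower with a mean FPKM of at least 5. In spheroids they were 2554 and 2162 at a threshold of 1, 1396 and 1255 with a pseudocount of 0.1, 544 and 302 with a mean FPKM of at least 5, and 1489 higher with TPM. TPM moved the median of the genes compared between the lines to 0.13 in adherent cells and 0.26 in spheroids. TPM multiplies all values of a library by 1 factor, and the factors differed between the libraries. The pseudocount stayed at 1 on these larger values, so that low genes appear to differ more than on FPKM. Why the factors differed was not tested.

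Of 104 log2 differences of the 26 chains, 4 changed sign under an alternative scaling, those of COL4A3, COL9A2 and COL18A1 in LOVO spheroids and of COL17A1 between the adherent lines, and the largest of these was 0.08 in size as reported. In limma, 1153 genes were higher and 734 lower in LOVO with a mean FPKM of at least 5. COL3A1 passed with TPM (limma adjusted p = 0.0370) and with a pseudocount of 0.1 (limma adjusted p = 0.0319). Without the replicate block, that is without the other factor as covariate, limma called 1270 genes higher and 1375 lower in LOVO and 0 between growth forms, where 163 had an unadjusted p under 0.05, and COL12A1 (limma adjusted p = 0.0548) and COL8A1 (limma adjusted p = 0.0726) no longer passed.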

Other observations

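Collagen genes that lie on the same stretch of a chromosome were set side by side, a comparison chosen after their values were seen. COL3A1, at 188974320 to 189012746 of chromosome 2 (GRCh38, plus strand), and COL5A2, at 189031896 to 189225312 on the minus strand, face each other. Both were highest in LOVO spheroids, at an FPKM of 5.13 and 1.79, against 0.811 and 0.322 in adherent LOVO cells. On chromosome 21, COL18A1 (45405137 to 45513720), COL6A1 and COL6A2 lie in that order on the plus strand. COL18A1 and COL6A2 were both low in the LOVO libraries, at 1.76 and 0.0207 in adherent cells, whereas COL6A1 between them stood at 17.0. COL4A5 and COL4A6, whose starts face away from each other on chromosome X, differed in LOVO, with 26.2 against 24.8 for COL4A5 and 3.66 against 0.312 for COL4A6 in spheroids and adherent cells.

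SPARC, a collagen-binding protein of the basement membrane, lay outside the genes compared because its mean FPKM was below 1. It had 13 reads in adherent and 231 in spheroid HCT116 cells, and 0 in adherent and 5 in spheroid LOVO cells. In the same HCT116 spheroids the differentiation keratin KRT20 stood at an FPKM of 7.45 against 0.930 in adherent HCT116 cells, beside 0.0302 and 0.0538 in the LOVO libraries. KRT20 is 1 of the 8 colon epithelium markers. Of the others, KRT19, KRT8, KRT18, EPCAM, CDH1 and CDX2 had a lower FPKM in HCT116 spheroids, and VIL1 had 11 against 6 reads. The median log2 difference of the markers compared was -0.23.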
